A study of Homo sapiens with 12 samples.

Results

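The m6A peaks of untreated HSC3 cells were compared with those of untreated CAL33 cells. Both are established human cell lines of oral squamous cell carcinoma (OSCC), and the comparison asked which transcripts carried m6A in 1 line only and which in both. All peaks of the 2 control lists were taken, 3930 in HSC3 and 3625 in CAL33, which are 7555 of the 14586 peaks in the 4 lists of the series. The other lists came from the same lines after 100 nM rapamycin, an inhibitor of the kinase mTOR, for 3 days. Each list was called from 1 library of RNA pulled down with an antibody against m6A (MeRIP) and 1 input library, so no value has a replicate and the lines could not be compared by a test. A difference between the cell lines and a difference between their library pairs cannot be told apart. A peak was counted as present in both lines when its exonic blocks shared at least 1 bp with a peak of the other line on the same strand, and a gene as marked when its symbol had at least 1 peak. The lists hold called peaks only, so a peak missing from a list was not called at the depth of that library pair, which is unknown. Shares are given with 95% Wilson intervals, which cover counting error only.

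N6-methyladenosine (m6A) is the most common internal modification of messenger RNA. A methyltransferase complex with METTL3 and METTL14 at its core writes it, mostly within a short DRACH motif of which GGAC is the best known form, the demethylases FTO and ALKBH5 remove it, and proteins of the YTH and IGF2BP families read it and alter the splicing, translation or decay of the transcript. In transcripts of protein-coding genes it is known to gather near the stop codon, in the 3′UTR and in long internal exons.

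The sequences of 4 peaks show what the comparison rests on: a place called in both lines and places called in 1 line only. They were read from RefSeq promoter windows (build GRCh38.p14), which wholly contained 10 single-block peaks of the CDS or exon class among those read, and they were chosen after their values were seen. GGAC, searched on the strand of the transcript, is in capitals, and 6 of the 10 peaks held it. The first stretch, chr1:26696490-26696549 on the plus strand, is the 60 bases common to a CAL33 peak (fold enrichment 22.3) and an HSC3 peak (fold enrichment 78.5) in the CDS of ARID1A, a subunit of the SWI/SNF chromatin remodelling complex. The second, chr17:44678856-44678975 on the minus strand, is the first 120 bases of an HSC3 peak (17.3) in the CDS of CCDC43. The third, chr19:15834798-15834977 on the plus strand, is a whole HSC3 peak (1.94) in UCA1, a long non-coding RNA known from bladder cancer. The fourth, chr11:33075953-33076162 on the minus strand, is a whole CAL33 peak (202) in the pseudogene PIGCP1, whose reads may be shared with its parent gene. The latter 3 genes were unmarked in the other line.
ARID1A: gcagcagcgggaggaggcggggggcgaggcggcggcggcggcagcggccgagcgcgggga
CCDC43: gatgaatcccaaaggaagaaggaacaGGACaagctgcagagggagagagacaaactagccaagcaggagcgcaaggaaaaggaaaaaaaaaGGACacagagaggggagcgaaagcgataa
UCA1: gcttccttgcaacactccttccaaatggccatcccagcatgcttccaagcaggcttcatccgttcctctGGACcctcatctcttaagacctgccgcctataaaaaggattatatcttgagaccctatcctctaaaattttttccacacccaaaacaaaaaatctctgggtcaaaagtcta
PIGCP1: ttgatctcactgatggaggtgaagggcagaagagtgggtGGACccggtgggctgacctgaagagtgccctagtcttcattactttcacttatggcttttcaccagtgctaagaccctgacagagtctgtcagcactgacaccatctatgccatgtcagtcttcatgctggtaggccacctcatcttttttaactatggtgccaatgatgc
The printed ARID1A stretch held no GGAC, while the whole CAL33 peak, which starts at chr1:26696370, held 1 upstream of it. CCDC43 held 2 and the others 1 each. In windows around all annotated starts, GGAC stood in 19.7% of stretches of 60 bases, 35.4% of 120, 48.0% of 180 and 53.3% of 210, so its presence in single peaks of these lengths is a description only.

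Most peaks were called in 1 line only. Of the 3930 HSC3 peaks, 1013 (25.8%, 24.4% to 27.2%) overlapped a CAL33 peak, and of the 3625 CAL33 peaks 1028 (28.4%, 26.9% to 29.8%) overlapped an HSC3 peak. A further 915 HSC3 peaks (23.3%) and 955 CAL33 peaks (26.3%) lay elsewhere on a gene that was marked in the other line too. Their distance to the nearest peak of the gene in the other line was taken on the genome, so that introns count. Its median was 775 bp for HSC3 and 778 bp for CAL33. Within 100 bp lay 12.1% and 12.6%, within 200 bp 22.3% and 21.5%, and within 500 bp 39.7% and 38.2%. The remaining 2002 HSC3 peaks (50.9%) and 1642 CAL33 peaks (45.3%) were on genes with no peak in the other line. Where peaks did overlap, they shared a median of 90.9% of the shorter peak, but only 38 pairs had the same start and end. The median overlap was 180 bp (quartiles 121 and 211 bp), the smallest was 1 bp, 48.2% of the 1013 HSC3 peaks and their best partners shared the whole of the shorter peak, and 94.8% had the same region class.

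The p-value of a peak, and not its fold enrichment, went with its presence in both lines. In the quartile of HSC3 peaks with the smallest p-values, 42.9% (39.9% to 46.0%) overlapped a CAL33 peak, against 15.7% (13.5% to 18.1%) in the quartile with the largest. For CAL33 peaks the shares were 47.2% (44.0% to 50.4%) and 19.3% (16.9% to 22.0%). Over quartiles of fold enrichment, the ratio of immunoprecipitated RNA to input, the share ranged only from 24.3% to 26.9% in HSC3 and from 27.5% to 29.1% in CAL33. The median log10 p-value was -30.4 for overlapping HSC3 peaks and -14.2 for HSC3 peaks on genes unmarked in CAL33, while the median fold enrichment was 33.6 in both groups. Overlap also went with peak length, from 15.6% of the shortest quartile to 46.5% of the longest in HSC3 and from 18.8% to 48.8% in CAL33. Peaks with a false discovery rate above 0.05 made up 14.2% of the HSC3 list and 6.26% of the CAL33 list, and 11.1% and 14.5% of them overlapped.

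**Figure D1:**
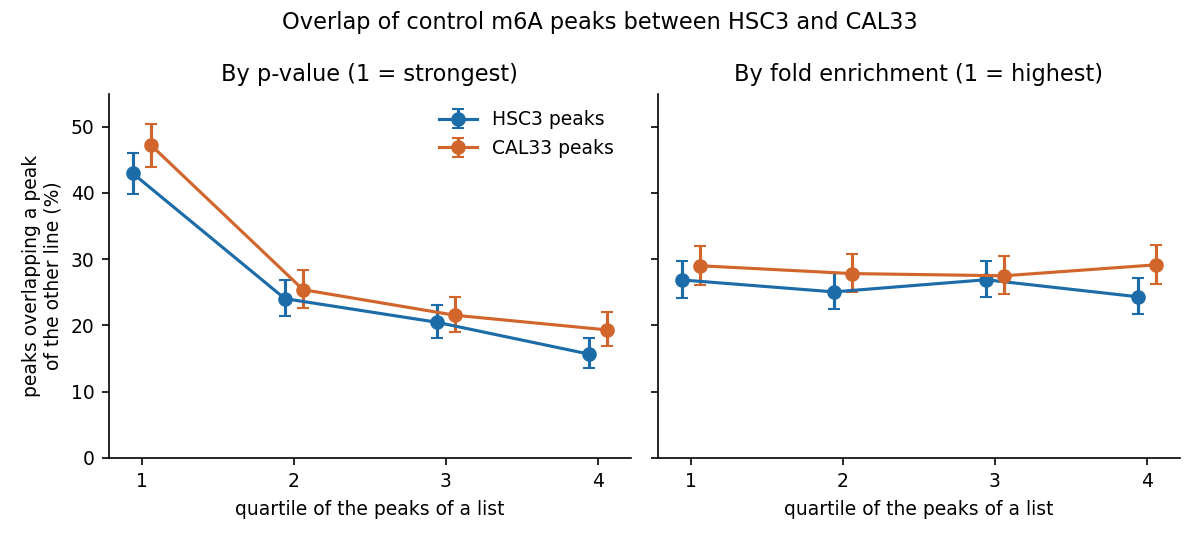
Share of control peaks (%) that overlapped a peak of the other line, by quartile of p-value (left) and of fold enrichment (right), with 95% Wilson intervals, for HSC3 (blue) and CAL33 (orange). The share fell from 42.9% to 15.7% in HSC3 and from 47.2% to 19.3% in CAL33 with weaker p-values, and stayed between 24.3% and 29.1% over fold enrichment.

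Many peaks of a list carried exactly the same pair of values. In HSC3, 1501 peaks (38.2%) had a fold enrichment and p-value shared by 10 or more peaks, in 49 combinations. In CAL33, 1209 peaks (33.4%) did, in 56 combinations. The most frequent combination was a fold enrichment of 11.2 with a log10 p-value of -1.54 in HSC3 (269 peaks), and 17.0 with -2.78 in CAL33 (94 peaks). Between 25 and 100, the fold enrichments of these combinations were spaced by a median of 5.60 in HSC3 and 4.30 in CAL33. Such peaks were less often present in both lines. They overlapped a peak of the other line in 13.7% (12.1% to 15.6%) of cases in HSC3 and 16.5% (14.5% to 18.7%) in CAL33, against 38.4% (36.0% to 40.8%) and 39.9% (37.5% to 42.3%) of peaks whose values no other peak shared. Their genes had a lower median level in the control RNA libraries described below, 21.9 CPM (counts scaled to the library total) against 82.8 for HSC3 and 31.8 against 82.9 for CAL33. The part of read depth in this was not tested. Where all peaks of a gene named below were of this kind in a line, the number of peaks of the list with its values is given beside it.

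**Figure D2:**
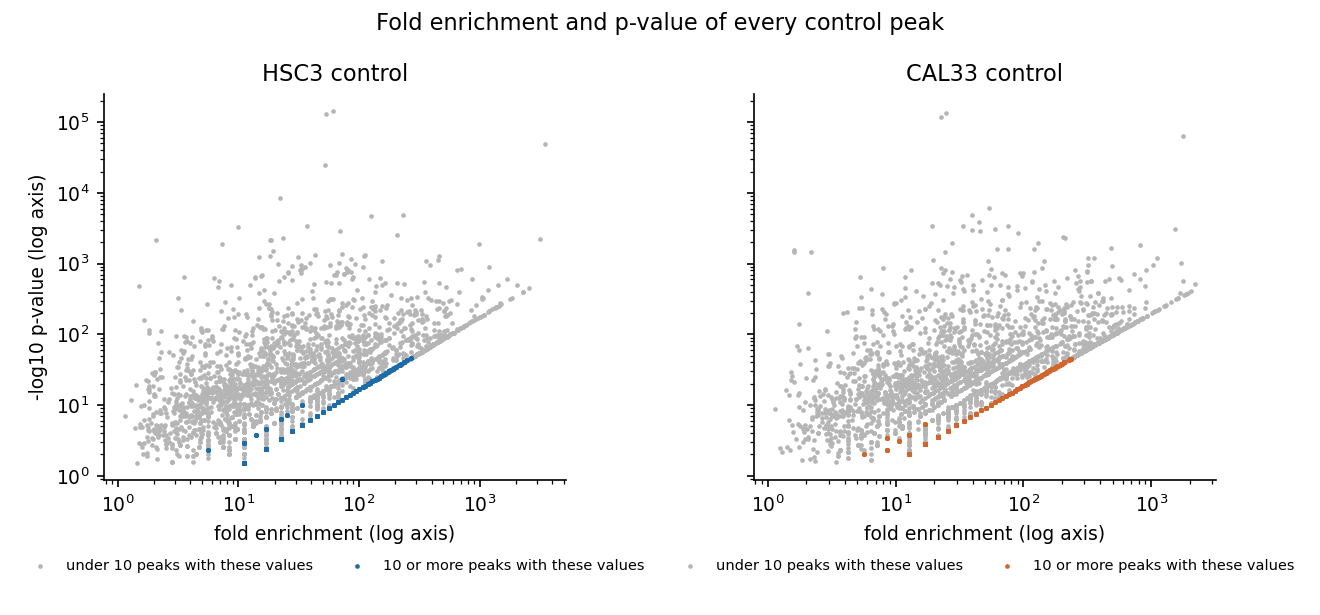
Fold enrichment (x, log axis) against -log10 p-value (y, log axis) of every control peak of HSC3 (left, 3930 peaks) and CAL33 (right, 3625 peaks). Coloured points are the 49 and 56 combinations of values that 10 or more peaks shared, which line the lower edge in regular steps.

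The lines distributed their peaks over transcripts alike, with coding sequence first and the 3′UTR next. The authors' class CDS took 41.3% (39.7% to 42.8%) of HSC3 peaks and 42.6% (41.0% to 44.3%) of CAL33 peaks, and the 3′UTR took 35.4% (33.9% to 36.9%) and 37.0% (35.5% to 38.6%). The class exon, which the files do not define further, took 19.6% and 17.3%, and the 5′UTR 3.54% and 2.98%. Presence in both lines was highest for CDS peaks and lowest for the 5′UTR among the 4 large classes of each list. CDS peaks were found in the other line in 28.1% (26.0% to 30.4%) of cases in HSC3 and 30.9% (28.7% to 33.3%) in CAL33. For the 5′UTR the shares were 16.5% (11.3% to 23.6%) of 139 peaks and 18.5% (12.3% to 26.9%) of 108, and these intervals lay below those of CDS. Antisense RNAs held 139 HSC3 and 90 CAL33 peaks, of which 16.5% (11.3% to 23.6%) and 24.4% (16.7% to 34.2%) overlapped. Long intergenic RNAs held 71 and 39 peaks, of which 16.9% (9.94% to 27.3%) and 33.3% (20.6% to 49.0%) overlapped.

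Fold enrichment ranked the overlapping peaks differently in the lines. Because the scale of a fold enrichment depends on its library pair (the median was 33.6 in HSC3 and 42.6 in CAL33), each peak was placed by its percentile within its own list. Over the 1013 HSC3 peaks and their best partners, the percentile in CAL33 minus that in HSC3 had a median of -0.44 and quartiles of -22.7 and 22.2. It was within 10 points for 24.2% of them (21.6% to 26.9%) and over 50 points for 16.4%. Spearman's rho across these peaks, which share libraries and are not replicates, was 0.29. It was 0.54 for the 237 pairs with both peaks in the strongest quartile of p-values. Where neither peak of a pair had values shared by 10 or more peaks (691 pairs), rho was 0.35.

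**Figure D3:**
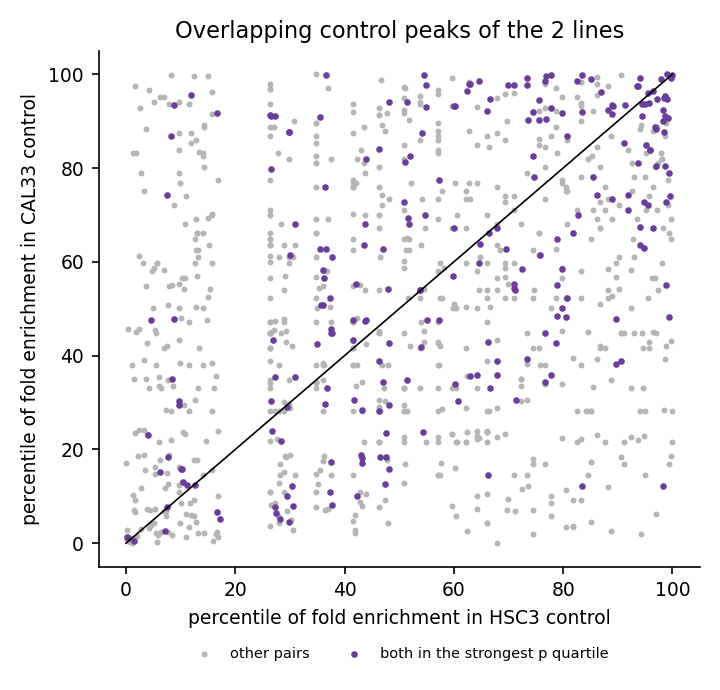
Percentile of fold enrichment in HSC3 (x) and CAL33 (y) of the 1013 overlapping control peaks, with the line of equal percentiles. The 237 pairs in the strongest quartile of p-values in both lists (purple) had a rho of 0.54 against 0.29 for all pairs.

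The pairs that ranked highest in both lines included both ribosomal RNAs of mitochondria. MT-RNR2, the large one, had a fold enrichment of 3490 in HSC3 and 1760 in CAL33, at percentiles 100.0 and 99.8. MT-RNR1, the small one, had 650 and 387. Nuclear copies of mitochondrial sequence exist, and reads may be shared with them. Of the transcripts of protein-coding genes, GEN1, a nuclease that resolves DNA junctions, had a 3′UTR peak at chr2:17783851-17784181 with 1700 in HSC3 and 894 in CAL33. DDX23, a helicase of the spliceosome, had 892 and 2190 in its 3′UTR. TRUB2, a pseudouridine synthase of mitochondrial RNA, had 527 and 813, and TNFAIP8, a regulator of cell death and lipid transfer, had 421 at its stop codon in HSC3 and 443 in its 3′UTR in CAL33. These pairs lay within 4.28 points of percentile of each other, as did the other 4 of the 10 highest (PMS2CL, ZNF592, DIDO1 and PURA).

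Other overlapping pairs stood at opposite ends of the lists. UMPS, which makes uridine monophosphate, had a CDS fold enrichment of 308 in HSC3 and 2.49 in CAL33, a fall of 92.2 points with 31 bp shared. PITX1, a homeobox transcription factor, had 572 and 7.53 in its 3′UTR, although its log10 p-values were close, -99.5 and -112. QRICH1, a transcription factor of the stress response in the endoplasmic reticulum, had 1050 and 10.8 in its CDS, and PFKFB3, an activator of glycolysis, had 202 (values that 17 HSC3 peaks shared) and 2.95 in its 3′UTR. JADE2, a protein of histone acetyltransferase complexes, completed the 5 furthest pairs on the HSC3 side. On the CAL33 side, CWC22, a splicing factor, had 2.14 in HSC3 and 528 in CAL33 in its CDS. The receptor NOTCH2 had 5.22 in HSC3 and 1860 in CAL33 for this pair, but a second HSC3 peak under the same CAL33 peak, at chr1:119914818-119915148, had 42.3 with a log10 p-value of -522. FOXM1, a transcription factor of the G2 phase and mitosis, had 4.35 and 385 in its CDS, and BCL9L, a co-activator of Wnt signalling, had 2.64 and 302. PACS2, a sorting protein, had 3.40 and 464 in its 3′UTR. Other overlapping pairs of some of these genes went the other way in percentile. They stood at 66.1 in HSC3 and 23.7 in CAL33 for BCL9L and at 11.0 and 1.38 for FOXM1. For JADE2 they stood at 77.7 and 92.7, and for PITX1 at 46.5 and 61.1. Further pairs of BCL9L (37.5 and 45.7), FOXM1 (6.95 and 95.2), PITX1 (83.4 and 12.2) and UMPS (81.7 and 39.5) went the same way.

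At the level of genes, 4429 symbols were marked in either list. Of these, 1711 (38.6%) were marked in HSC3 only, 1426 (32.2%) in CAL33 only and 1292 (29.2%) in both. The genes in both lists were 43.0% of the 3003 HSC3 genes and 47.5% of the 2718 CAL33 genes. Of the 1292 genes, 856 (66.3%) had at least 1 overlapping peak and 436 (33.7%) were marked at different places. The gene lists that follow are set against these shares over all marked genes, with no test of the difference. Of all genes with a mean of at least 1 CPM in the control RNA libraries described below, 29.0% were marked in either list.

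Marked genes of growth factor signalling and chromatin regulation were more often in both lines than the 29.2% over all marked genes. Of 54 growth factor genes 29 were marked, 17 (58.6%) in both, 11 in HSC3 only and 1 in CAL33 only. The genes in both included the receptors EGFR and MET. HBEGF, a ligand of EGFR, had an overlapping 3′UTR peak with a fold enrichment of 1450 in HSC3 and 80.9 in CAL33. JAG1, a ligand of Notch receptors, had overlapping CDS peaks with 20.3 in HSC3 and 487 in CAL33. SPRED2, an inhibitor of Ras signalling, had 123 in HSC3, among 24 peaks with those values, and 489 in CAL33 in its CDS. The receptors of insulin and of insulin-like growth factor (INSR and IGF1R) were marked in HSC3 only, as were the Wnt receptor FZD7 (264, 3′UTR), the Wnt co-receptor LRP6 (84.1, CDS) and the inhibitor SPRY4 (168, 3′UTR). The LRP6 and SPRY4 peaks had values that 27 and 14 HSC3 peaks shared, and both INSR peaks had values that 269 and 79 shared. The single gene marked in CAL33 only was the ephrin receptor EPHB4 (200, exon), with values that 11 peaks shared. Of 56 chromatin modifiers 34 were marked, 21 (61.8%) in both, 8 in HSC3 only and 5 in CAL33 only. Besides ARID1A, the genes in both included the methyltransferases KMT2A, KMT2B, KMT2C and KMT2D and the acetyltransferases EP300 and CREBBP. The HSC3 peak of KMT2C had values that 36 peaks shared, and the 3 CAL33 peaks of KMT2D had values that 17, 43 and 49 shared. ARID1A had 3 HSC3 and 6 CAL33 peaks, and the HSC3 peak at chr1:26780365-26780575 had 908 against 111 for the CAL33 peak that overlapped it. CHD7, a chromatin remodeller, had 3 HSC3 peaks between 11.2 and 107 and 5 CAL33 peaks between 14.0 and 1300, of which 1 pair overlapped, and over 10 peaks shared the values of each HSC3 peak. HDAC7 (191 at its highest peak) and KDM4A (168) were marked in HSC3 only, and KMT2E (323) and SETD2 (170 at its highest peak) in CAL33 only.

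Marked immediate early and stress transcription factors were also more often in both lists than the 29.2% over all marked genes. Of 51 genes 33 were marked, 18 (54.5%) in both, 9 in HSC3 only and 6 in CAL33 only. KLF13, a Krüppel-like factor, had a 3′UTR peak at chr15:31373196-31373525 with 3150 in HSC3 (log10 p-value -2230), overlapped by a CAL33 peak with 17.0, a value pair that 94 CAL33 peaks had. IER3, an early stress gene, had overlapping 3′UTR peaks with 37.0 in HSC3 and 94.0 in CAL33, at log10 p-values of -3380 and -730. IER2 had 544 and 166 in its 3′UTR. The genes of AP-1 split, with JUN and JUNB in both lists, FOSB (28.0, 3′UTR, values that 55 peaks shared) and FOSL1 in HSC3 only, and JUND in CAL33 only with 3 peaks between 3.45 and 12.0. Head and neck cancer genes showed the same leaning to both lines, with 12 of 20 marked genes in both, 6 in HSC3 only and 2 in CAL33 only. FAT1, a giant cadherin, had 7 HSC3 and 6 CAL33 peaks in its CDS, of up to 202 in HSC3 and up to 25.5 in CAL33, and 3 places overlapped. NOTCH1 was marked in HSC3 only, with 191 in its 3′UTR and 44.9 in its CDS, both value pairs shared by over 10 peaks. FADD, an adaptor of death receptors, had 80.0 in HSC3 at a log10 p-value of -811. Its partner CASP8 had 25.5 in CAL33, among 43 peaks with those values.

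**Figure D4:**
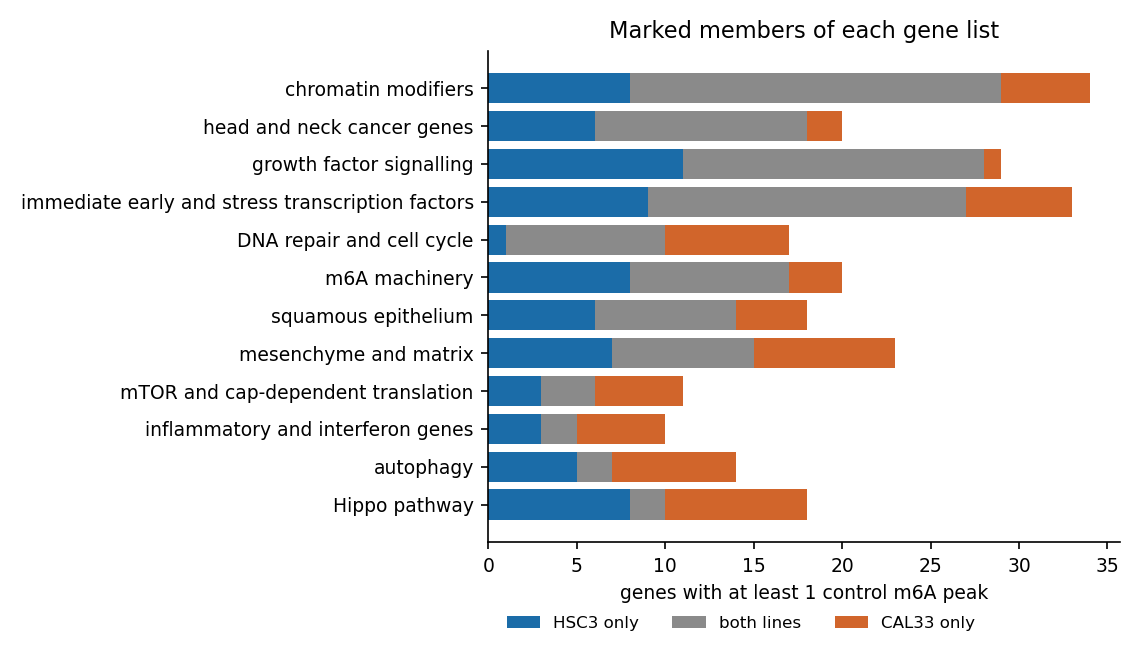
Number of genes with at least 1 control m6A peak in each of 12 gene lists, split into HSC3 only (blue), both lines (grey) and CAL33 only (orange), ordered by the share in both. Chromatin modifiers had 21 of 34 marked genes in both lines and the Hippo pathway 2 of 18.

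Of the genes of the m6A machinery 20 of 30 were marked, where 29.0% of all genes with a mean of at least 1 CPM in the control RNA libraries described below were, with 9 (45.0%) in both lines, 8 in HSC3 only and 3 in CAL33 only. Among the writers, the catalytic subunit METTL3 (10.1, exon) and its partner METTL14 (22.4, CDS) were marked in HSC3 only. The METTL14 peak was 1 of 95 HSC3 peaks with its values and had a false discovery rate above 0.05. No other peak had the values of METTL3. The CBLL1 subunit (20.3, CDS) and PCIF1 (179, stop codon, values that 25 peaks shared), which methylates the adenosine next to the cap, were in HSC3 only as well. Other subunits were in both lists. WTAP had overlapping 5′UTR peaks with 289 in HSC3 and 528 in CAL33, and VIRMA had overlapping CDS peaks with 46.7 and 63.8. RBM15, which guides the complex to its targets, had 2 overlapping CDS places, with 186 in HSC3 and 431 in CAL33 at the first and 80.2 and 76.1 at the second. Its paralogue RBM15B had 15.0 and 166 at the overlapping place. ZC3H13 was marked in both lines but at different places. The erasers differed in the same way from gene to gene. ALKBH5 had CDS peaks of 6.54 in HSC3 and 33.7 in CAL33 that did not overlap, and FTO had 1 CAL33 peak (4.26, CDS) and no HSC3 peak. Of the readers, YTHDF2 had overlapping CDS peaks with 19.2 in HSC3 and 133 in CAL33. In the control lists, YTHDF1 (9.92, CDS) and YTHDC1 (5.68, CDS) were in HSC3 only, and YTHDF3 (85.1 and 5.69, CDS) in CAL33 only. At the YTHDC1 place the CAL33 rapamycin list held a peak and the HSC3 one did not. Of the YTHDF3 places, the CAL33 rapamycin list held only that of 85.1 and the HSC3 one only that of 5.69. IGF2BP2, which stabilises bound transcripts, had the highest fold enrichment of the list, 894 in its 3′UTR at chr3:185643739-185644009, in CAL33 only. Both rapamycin lists held a peak at that place. EIF3A and PRRC2A had overlapping CDS peaks at or below percentile 17.1 in both lists.

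In the mTOR pathway, which rapamycin inhibits, 11 of 33 genes were marked, 3 in HSC3 only, 5 in CAL33 only and 3 in both (27.3%, close to the 29.2% over all marked genes). MTOR itself had 1 peak, in HSC3 (68.7, 3′UTR, log10 p-value -43.5). CAL33 only were MLST8 (59.6, exon, log10 p-value -126), which both mTOR complexes hold, RICTOR (51.1, CDS), which defines mTORC2, and RPTOR (17.0, 3′UTR), which defines mTORC1. The HSC3 rapamycin list held peaks at the MLST8 and RICTOR places, and the CAL33 rapamycin list did not. The inhibitors TSC1 and TSC2 (106, CDS) were also in CAL33 only. The RPTOR and TSC2 peaks had values that 94 and 25 peaks shared, and the RPTOR peak had a false discovery rate above 0.05. The substrate RPS6KB1 had 3′UTR peaks with 82.2 in HSC3 and 54.3 in CAL33 that overlapped by 1 bp. EIF4G1, the scaffold of cap-dependent translation initiation, had overlapping CDS peaks at low fold enrichment and small p-values, 4.32 (log10 p-value -68.5) at chr3:184321584-184321973 in HSC3 and 9.63 (-281) at chr3:184321614-184321853 in CAL33. AKT2 had 11.2 and 6.81 at an overlapping 3′UTR place.

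Marked autophagy and Hippo genes were in both lines less often than the 29.2% over all marked genes. Of 43 autophagy genes 14 were marked, where 29.0% of all genes with a mean of at least 1 CPM were. Of these 14, 5 were in HSC3 only, 7 in CAL33 only and 2 (14.3%) in both. UVRAG, which acts in the lipid kinase complex of autophagy, had 524 in HSC3 (CDS) and the protease ATG4B 314 (3′UTR). In the control lists, the marked members of the complex that starts autophagy were in CAL33 only, namely ULK1 (238, 3′UTR), ATG13 (196, 3′UTR, values that 15 peaks shared), ATG101 and RB1CC1. Both rapamycin lists held a peak at the ULK1 place, and at the ATG13 place only the HSC3 one did. PIK3R4, a subunit of the lipid kinase, had an overlapping CDS peak in both lines that started at the same base, with 60.1 in HSC3 and 584 in CAL33. AMBRA1 had 11.2 and 29.8 in its 3′UTR. Of 18 marked Hippo genes of 30, 8 were in HSC3 only, 8 in CAL33 only and 2 (11.1%) in both, neither with an overlapping peak. The co-activators YAP1 and WWTR1 and the kinase LATS2 were in HSC3 only. The kinase LATS1 (42.6, CDS, values that 32 peaks shared) was in CAL33 only, with AMOTL1, a cytoplasmic partner of YAP1, whose 3′UTR peak had 44.5 at a log10 p-value of -3860. The cadherin FAT4 had 353 in HSC3 and the cofactor VGLL3 621 in CAL33. TAOK1 and AMOTL2 were marked in both lines at different places, and the HSC3 peak of TAOK1 had values that 25 peaks shared.

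Of 17 marked genes of DNA repair and the cell cycle among 54, 9 (52.9%) were in both lines, 7 in CAL33 only and 1 in HSC3 only. Over all marked genes the shares were 29.2% in both, 32.2% in CAL33 only and 38.6% in HSC3 only. The CAL33 genes included the inhibitor CDKN1B (157, 5′UTR) and the kinases CDK2 (115, 3′UTR) and CDK6 (59.6, 3′UTR), and the first 2 had values that 17 and 11 peaks shared. The DNA polymerase POLQ had 4 CDS peaks in CAL33, between 3.34 and 62.4. The HSC3 gene was CCNF (28.0, exon), a cyclin that is part of a ubiquitin ligase. The mismatch repair gene MSH6 had 2 overlapping CDS places, with 6.83 in HSC3 and 123 in CAL33 at the first and 41.7 and 15.8 at the second. CDK12, a kinase of transcription, had overlapping CDS peaks with 7.70 in HSC3 and 7.89 in CAL33. Of 49 inflammatory and interferon genes 10 were marked, where 29.0% of all genes with a mean of at least 1 CPM were. IL6ST (150, 3′UTR), RELA and IRF2 (values that 17 peaks shared) were in HSC3 only, TNFAIP3 (426, 3′UTR), STAT2, IFIT1, IFIT3 and TAP1 (values that 49 peaks shared) in CAL33 only, and CSF1 and IFIT2 in both, the latter with an HSC3 peak whose values 76 peaks shared.

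Of 18 marked squamous genes of 49, 8 (44.4%, against 29.2% over all marked genes) were in both, 6 in HSC3 only and 4 in CAL33 only. Among the cadherins of cell junctions, CDH3 (339, 3′UTR) and DSC3 (286, 3′UTR) were marked in the HSC3 control list only, and CDH1 (157, 3′UTR, values that 17 peaks shared) and DSG3 (11.6, CDS) in that of CAL33. Both rapamycin lists held a peak at the CDH3 place, and at the DSG3 place only the HSC3 one did. SOX2, a transcription factor of progenitor cells, had 76.6 and 132 in CAL33. Its single HSC3 peak (11.2) had the commonest value pair of the list, which 269 peaks shared, and a false discovery rate above 0.05. Of 23 marked genes of mesenchyme and matrix among 47, 8 (34.8%, against 29.2% over all marked genes) were in both, 7 in HSC3 only and 8 in CAL33 only. TGFB1, a growth factor that drives mesenchymal change, had 662 in its 5′UTR in HSC3, and TNC, a matrix glycoprotein, had 61.3 (log10 p-value -319) and 140 in its CDS. In CAL33 only were COL4A2, a basement membrane collagen, with 3 peaks from 289 to 1270, fibronectin (FN1, 702, exon) and the intermediate filament vimentin (VIM, 336, exon). SPARC, a matrix protein, had overlapping CDS peaks with 137 in HSC3 and 93.6 in CAL33.

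RNA levels could not be assigned to a line. The labels give CAL33 as the cell line of both control RNA-seq libraries, whereas the MeRIP libraries use number 1 for HSC3 and number 2 for CAL33, so both are described and no line is read from them. They held 21653290 and 23763098 counts. Squamous epithelial markers summed to 3491 and 6646 CPM, and 10 of 11 reached 1 CPM in both. KRT14 was the exception, at 0 counts in library 1, which allows up to 0.139 CPM, and 9.30 CPM in library 2. The sums hide wide differences between the libraries. KRT5 had 34.2 CPM in library 1 and 1696 in library 2, KRT17 4.90 and 1341, KRT6A 4.39 and 372, and TP63 19.7 and 331. LAMB3 (1330 and 458), CDH1 (334 and 179) and EPCAM (272 and 164) were higher in library 1. The 6 fibroblast markers summed to 35.8 and 8.75 CPM, the 4 immune markers to 0.139 and 0.0421 CPM and the 3 endothelial markers to 1.71 and 30.7 CPM. Several matrix genes with peaks differed widely between these libraries, with 8205 and 33.8 CPM for FN1, 544 and 6.69 for VIM, and 239 and 0.842 for SPARC. COL1A2 and COL3A1 held 0 counts in both (up to 0.139 and 0.126 CPM) while COL1A2 had a CAL33 peak of 409 and COL3A1 an HSC3 peak of 44.9, values that 47 peaks shared. Peaks of genes with so little RNA are given as listed.

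Genes marked in both lines had more RNA. Their median was 56.3 CPM in control library 1 and 60.2 CPM in library 2, against 26.7 and 21.4 for genes marked in HSC3 only, 27.8 and 33.0 for CAL33 only and 17.5 and 18.2 for unmarked genes with a mean of at least 1 CPM. Overlap fell from 37.6% to 12.3% of HSC3 peaks and from 37.7% to 18.3% of CAL33 peaks between the highest and the lowest quartile of RNA level. Genes marked in HSC3 only were more often over 2-fold higher in library 1 (25.4%, 23.4% to 27.5%) than in library 2 (9.18%, 7.90% to 10.6%). For CAL33 only the shares were 10.6% (9.15% to 12.4%) and 19.4% (17.4% to 21.5%), and for genes in both 9.91% and 11.7%. Over all genes with a mean of at least 1 CPM they were 18.1% and 14.9%, and over unmarked ones 19.3% and 15.8%. How much of the difference in marked genes went with RNA level was not tested.

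The rapamycin lists, which were not used to sort the peaks, gave a second look at peaks of 1 line. Of the 2917 peaks in HSC3 only, 20.1% (18.7% to 21.6%) overlapped a peak of the HSC3 rapamycin list and 13.7% (12.5% to 15.0%) one of the CAL33 rapamycin list. Of the 2597 peaks in CAL33 only, 17.0% (15.6% to 18.5%) overlapped the CAL33 rapamycin list and 20.4% (18.9% to 22.0%) the HSC3 one. Peaks of CAL33 only were thus found less often in the rapamycin list of their own line than in that of the other, but the HSC3 rapamycin list is longer (3952 peaks against 3079). With both lists held to the 3079 smallest p-values, the shares were 17.0% in the own and 16.8% in the other line. Per 1000 rapamycin peaks the shares were 5.08% in the own and 4.45% in the other line for HSC3 only, and 5.53% and 5.16% for CAL33 only. Peaks present in both control lists were found again far more often, 51.7% (48.6% to 54.8%) of those of HSC3 and 45.4% (42.4% to 48.5%) of those of CAL33 in the own line. Most peaks of 1 line, 72.0% in HSC3 and 69.1% in CAL33, were in neither rapamycin list. Among genes, 34.0% of the 1711 in HSC3 only were marked in the HSC3 rapamycin list and 22.6% in the CAL33 one, while 27.3% of the 1426 in CAL33 only were marked in the CAL33 rapamycin list and 32.3% in the HSC3 one. Of the 1292 genes in both control lists, 594 (46.0%) were marked in all 4 lists.

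**Figure D5:**
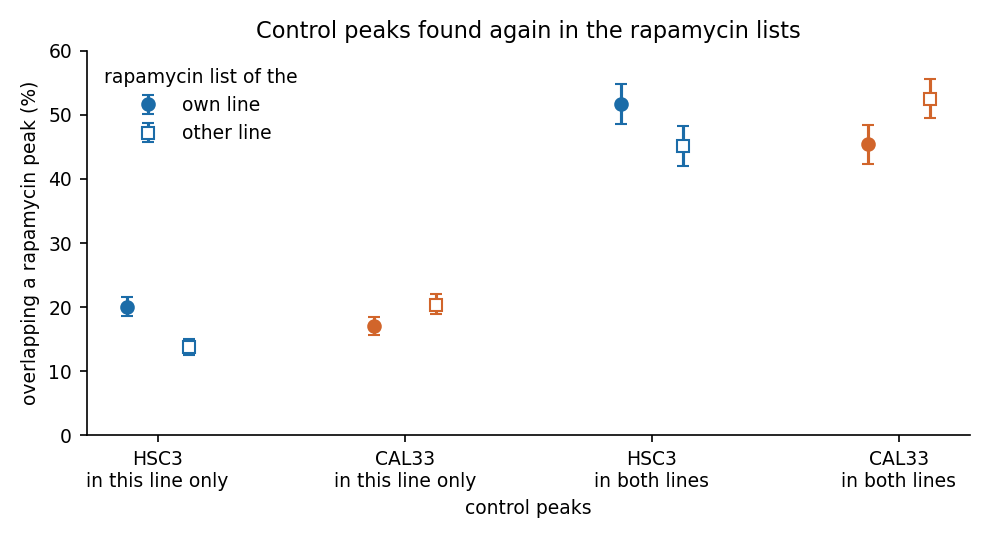
Share of control peaks (%) that overlapped a peak of the rapamycin list of the own line (filled circles) or the other line (open squares), with 95% Wilson intervals, for peaks of 1 line and of both lines. Peaks in both lines lay between 45.1% and 52.5%, peaks of 1 line between 13.7% and 20.4%.

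A smaller group of genes was marked in 1 line with and without rapamycin. There were 181 such genes among the 1711 in HSC3 only and 112 among the 1426 in CAL33 only. They had a false discovery rate of at most 0.05, an overlapping rapamycin peak in the own line and no peak on the gene in either list of the other line. By symbol alone, 379 HSC3-only genes were marked in the HSC3 rapamycin list and not the CAL33 one, and 184 the other way round. For CAL33-only genes, 196 were marked in the CAL33 rapamycin list and not the HSC3 one, and 268 the other way round. Of the 181 HSC3 genes, those with the highest percentile began with PTAR1, a subunit of a prenyltransferase, at chr9:69718334-69718664. It had 2040 in control and 45.1 with rapamycin. NRP1, a co-receptor of semaphorins and VEGF, had 1490 and 18.0. The amino acid transporter SLC1A4 had 1200 and 186, and the homeobox gene SHOX2 had 864 and 181 (log10 p-values -603 and -306). TGFB1 had 662 and 112 and UVRAG 524 and 62.9. The zinc finger homeobox gene ZFHX4 had 1180 in control and 2.05 with rapamycin, at a false discovery rate above 0.05 for the latter. In control RNA libraries 1 and 2, ZFHX4 had 57.8 and 0.0421 CPM, SHOX2 12.5 and 0.379, TGFB1 187 and 31.3, and NRP1 68.2 and 26.5. PTAR1 (52.2 and 40.5), SLC1A4 (43.5 and 31.9) and UVRAG (24.3 and 18.7) differed less. In CAL33 the group was led by the zinc finger gene ZNF33B at chr10:42594160 (726 and 99.1), CCP110 (528 and 122), a centriole protein, and SOX13 (515 and 83.1), a transcription factor. VIM had 336 and 45.6, and MSN, which links actin to the membrane, had 328 and 67.9 at log10 p-values of -64.1 and -43.5. In the RNA libraries, VIM (544 and 6.69 CPM) and MSN (751 and 323) were higher in library 1. CCP110 (31.5 and 72.8) and SOX13 (43.9 and 99.3) were higher in library 2. The part of RNA level in these peaks was not tested. In all 10 genes named by this rule in each line the fold enrichment was lower in the rapamycin list, but they had been chosen for a high value in the control list and the scales of the lists differ, so no change is read from this.

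PLEC, FAM83H and EPPK1 had the most peaks on a gene, all 3 on chromosome 8 and larger in number in CAL33. PLEC, a giant linker of the cytoskeleton, had 8 HSC3 and 12 CAL33 peaks, all in the CDS. Of the 8 HSC3 peaks 7 overlapped a CAL33 peak, and fold enrichments were low, between 1.41 and 17.3 in HSC3 and between 1.69 and 53.9 in CAL33. FAM83H, a keratin-binding protein, had 4 and 11 peaks. EPPK1, a plakin of epithelial cells, had 1 HSC3 peak (39.3, values that 40 peaks shared) and 11 CAL33 peaks (11.2 to 170) at other places. Some of the FAM83H and EPPK1 peaks were the same place listed more than once with nearly the same start, so their numbers overstate the number of places. EPPK1 had 7.48 CPM in control RNA library 1 and 64.1 in library 2.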

How the data were processed

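RNA-seq and MeRIP-seq libraries of OSCC cells were used as deposited. Each pair of immunoprecipitated and input library has 1 peak list, in which the authors gave a fold enrichment (a ratio), a log10 p-value, a log10 false discovery rate and a score that repeats the p-value for each peak, with its exonic blocks, gene and region class, as deposited. The RNA-seq table deposited by the authors holds whole read counts for every gene identifier, not normalized. The submitters' processing notes name hg38, cutadapt 2.5, HISAT2 2.1.0, featureCounts 1.6.3 and HOMER 4.10.4 without roles. The peak caller and its settings are not given in the sources used here, and the depth of the MeRIP libraries is unknown.

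Positions are counted from 1. Overlaps, percentiles within a list, Wilson intervals and Spearman's rho were computed in Python 3.11.15 with pandas 2.3.3 and scipy 1.17.1, and drawn with matplotlib 3.10.9, after the overlap rule was tested on simulated peaks. Counts of the 2 control RNA libraries were divided by the library total (CPM). The 2 rapamycin RNA columns were not used. With 1 list per line no test was run. The members, the 12 gene lists, the gene families and the tests were chosen with earlier results of these data known. Named were the 10 pairs with the highest smaller percentile, the 5 furthest pairs in each direction, the 10 leading genes per line that were marked with and without rapamycin in that line only, up to 4 leading members per list and line (all marked members for m6A), and the 3 genes with the most peaks. Other members of lists, and UCA1, CCDC43 and PIGCP1, were named after their values were seen. Alternatives changed the overlap rule, the peak threshold, the measure of strength and the size of the lists.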

Additional observations from a re-analysis of the deposited data

How the results depend on the processing

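With at least 50% of the shorter peak shared, 21.4% of HSC3 and 23.5% of CAL33 control peaks were present in both lines, and peaks of 1 line overlapped the rapamycin list of the own and the other line in 16.1% and 10.7% of cases for HSC3 and 13.7% and 16.1% for CAL33. The HSC3 share was 27.5% with a false discovery rate of at most 0.05 in both lists and 27.3% with the 3625 smallest p-values of each list. The CAL33 share was 26.7% with a fold enrichment of at least 4. The following alternatives were chosen after seeing the data. Without peaks whose values 10 or more peaks shared, the HSC3 share was 28.6%. With the 3079 smallest p-values of each rapamycin list, 16.8% of HSC3-only peaks overlapped the own line (against 13.7% in the other) and 16.8% of CAL33-only peaks the HSC3 list (against 17.0% in the own), so the order of the lists for CAL33 turned. Peaks called on both strands could be left out with no shift beyond the interval. The other settings left each share within its interval, the number of genes in both lists between 1149 and 1245, and the median rank difference below 0. No paired analysis was possible because each line and treatment had 1 library pair and no test was run.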

Other observations

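Gene families outside the lists were split unevenly, given here as values. Of 4 marked HOX genes, which pattern the body axis, all were in CAL33 only in the control lists. They were HOXA3 (192, CDS), HOXA13 (34.0, 3′UTR), HOXD10 (119, CDS) and HOXD11 (132, CDS), the latter 2 at nearly the same place. At the HOXA13, HOXD10 and HOXD11 places the HSC3 rapamycin list held a peak, and the CAL33 one only at that of HOXA13. Of 15 marked protocadherins, 11 were in HSC3 only, 4 in CAL33 only and 0 in both. Of these, 9 were genes of the gamma cluster, whose transcripts end in common exons, and each of the 9 had a 3′UTR peak that started between chr5:141511420 and chr5:141511428, so this is 1 place under 9 symbols. Of 83 ribosomal protein genes 8 were marked, where 29.0% of all genes with a mean of at least 1 CPM were, with 6 in HSC3 only, led by RPL28 (1850, exon, log10 p-value -326), whose place both rapamycin lists held. Of 189 marked zinc finger (ZNF) genes 61 (32.3%) were in both lines, and of 75 marked LINC and antisense RNAs 11 (14.7%), with 44 in HSC3 only. In both lines were 18 of 66 marked solute carriers, 14 of 53 TMEM genes, 5 of 21 ubiquitin-specific proteases, 5 of 12 kinesins, 2 of 11 collagens, 0 of 3 keratins and 3 of 5 genes of the mitochondrial genome.

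Some places were listed on both strands. In HSC3, 197 peaks (5.01%) overlapped a peak of the same list on the opposite strand, and 134 of these had the same fold enrichment and p-value as that peak. In CAL33 the numbers were 179 (4.94%) and 113. Antisense RNAs were 54 of the 197 and 42 of the 179, which is 38.8% and 46.7% of all antisense RNA peaks, so that a peak on such a gene cannot be told apart from one on its partner.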
